A study of Homo sapiens with 6 samples.

Results

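The transcripts of 10 genes of the BCL2 family, BCL2L1, MCL1, BCL2L2, BAX, BAK1, BID, BAD, BIK, BBC3 and PMAIP1, were examined in Hep-G2, an established human liver cancer line, carrying either a control hairpin or one against CLGN, a calcium-binding chaperone of the endoplasmic reticulum. The 10 genes were chosen by name from the 58735 genes of the expression table, and all 10 were found. The comparison had 3 sh-NC libraries (genotype WT, treatment shcontrol) and 3 sh-CLGN libraries (CLGN knock down, treatment shCLGN). Per the study's methods the hairpins were delivered by lentivirus and the cells were selected with puromycin, with a single hairpin sequence in each group. All libraries carried the same batch label, 0DAY. With a single hairpin in each group, a difference between hairpins or between the selected cultures cannot be told apart from an effect of CLGN loss. Nothing in the labels says that the replicates came from separate cultures, so p-values measure only the spread between these libraries, which may be technical.

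The BCL2 family decides whether the outer membrane of the mitochondrion stays closed. Pro-survival proteins (BCL-XL from BCL2L1, MCL-1 from MCL1 and BCL-W from BCL2L2) hold in check the effectors BAX and BAK1, which open the membrane and release cytochrome c when they are set free. BH3-only proteins (BID, BAD, BIK, PUMA from BBC3 and NOXA from PMAIP1) carry stress and death signals to this balance, because they bind pro-survival proteins or act on the effectors directly. Hepatocytes and liver tumour cells are known to lean on BCL-XL and MCL-1 for survival.

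Levels are given in FPKM, which are read numbers scaled by gene length and by library size, so that levels of different genes can be set side by side. Each library held between 14955816 and 16244639 reads on genes, and 1 read on a gene of 1 kilobase was worth 0.0589 to 0.0717 FPKM. CLGN itself had 24.1, 21.0 and 26.1 FPKM in sh-NC and 9.48, 8.88 and 8.60 FPKM in sh-CLGN, so its level in sh-CLGN was 37.8% of control. All 9 hepatocyte markers passed the filter, with a summed level of 7062 to 7300 FPKM in sh-NC and 7161 to 7634 FPKM in sh-CLGN. Of these 9 markers 3 were called higher and 5 lower in sh-CLGN. Among all tested genes 26.7% were called higher and 39% lower, so such calls are common. The sum hides the changes of single markers, since mean AFP rose from 2670 to 3782 FPKM while ALB fell from 2007 to 1076 FPKM. TF fell from 181 to 58.4 FPKM. Of 8 fibroblast markers 5 could be tested and all 5 were higher. COL1A1, COL3A1 and LUM were under 1 FPKM in every sh-NC library and met the filter only through sh-CLGN. Their direction was therefore set by the filter and is no test result. Mean COL1A2 went from 4.20 to 38.7 FPKM and mean PDGFRB from 2.12 to 2.76 FPKM. The summed level of the 8 was 7.17 to 8.51 FPKM in sh-NC against 48.5 to 49.9 FPKM in sh-CLGN. PDGFRA, under the filter, had 0.324 to 0.471 FPKM in sh-NC and 0.853 to 1.08 FPKM in sh-CLGN. DCN and THY1, also under the filter, had at most 3 reads in every library. Of 4 immune markers 0 passed the filter, so none was tested. Of 3 endothelial markers PECAM1 passed it and was lower, and VWF had at most 3 reads in each library. The part of the fibroblast marker change in the results below was not tested.

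Promoter sequences of 4 members called lower in sh-CLGN are shown so that motifs of transcription factors known to act on this family can be seen in place. RefSeq (GRCh38.p14) gave windows from 250 bases before to 50 bases after a transcription start for 7 of the 10 members. MCL1, BCL2L2 and BIK had no entry. The first start of BCL2L1 lies in chr20:31723914-31724213 (minus strand), BAX in chr19:48954625-48954924 (plus strand), BBC3 in chr19:47232618-47232917 (minus strand) and PMAIP1 in chr18:59899746-59900045 (plus strand). Capitals mark the E-box CACGTG and the core of the cAMP response element TGACG, read on either strand.
BCL2L1: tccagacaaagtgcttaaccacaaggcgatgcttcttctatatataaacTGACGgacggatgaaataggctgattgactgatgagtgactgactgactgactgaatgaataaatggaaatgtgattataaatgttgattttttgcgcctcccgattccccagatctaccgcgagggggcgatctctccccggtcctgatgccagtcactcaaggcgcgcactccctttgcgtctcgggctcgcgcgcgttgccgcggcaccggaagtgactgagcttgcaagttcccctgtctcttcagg
BAX: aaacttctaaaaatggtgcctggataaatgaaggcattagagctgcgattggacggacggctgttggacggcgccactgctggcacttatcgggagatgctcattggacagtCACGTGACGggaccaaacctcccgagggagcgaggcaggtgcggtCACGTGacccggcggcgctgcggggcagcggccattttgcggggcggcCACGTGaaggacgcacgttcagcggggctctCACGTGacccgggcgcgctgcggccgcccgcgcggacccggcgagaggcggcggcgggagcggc
BBC3: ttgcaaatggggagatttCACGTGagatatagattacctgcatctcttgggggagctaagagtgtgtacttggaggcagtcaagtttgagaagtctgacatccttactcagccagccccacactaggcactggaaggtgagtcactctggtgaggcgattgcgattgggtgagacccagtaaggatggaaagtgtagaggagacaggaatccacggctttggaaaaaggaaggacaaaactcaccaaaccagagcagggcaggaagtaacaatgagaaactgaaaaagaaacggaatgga
PMAIP1: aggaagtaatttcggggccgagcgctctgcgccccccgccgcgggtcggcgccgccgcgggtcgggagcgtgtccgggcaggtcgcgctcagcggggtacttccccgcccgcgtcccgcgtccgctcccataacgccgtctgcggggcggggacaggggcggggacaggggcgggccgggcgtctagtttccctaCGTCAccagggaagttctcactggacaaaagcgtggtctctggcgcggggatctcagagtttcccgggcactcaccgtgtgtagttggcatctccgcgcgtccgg

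The BAX window held 4 copies of the E-box, the letters bound by MYC with MAX and by USF factors, and the first of these overlapped a cAMP response element core. The BBC3 window held 1 E-box, as did 2 of the 5 start windows of BID, while the windows of BCL2L1, BAK1, BAD and PMAIP1 held 0. Among all 35116 promoter windows, 7.26% held that motif. The response element core TGACG was present in the first of the 2 windows of BCL2L1 and in those of BAX, BAD and PMAIP1, against 24.6% of all windows. No member window held the kappaB motif, which 5.91% of all windows held, or the ATF4-CHOP motif TGATGNAA, which 3.62% held. The p53 decamer was found in BAK1 only (6.63% of all windows). The CCAAT box, present in 34.6% of all windows, was found in BAX, BAK1, BAD and BBC3, and the GC box GGGCGG, present in 45% of all windows, was found in all 7 members but BBC3, in BCL2L1 at its second start. These matches describe letters in short windows, and a missing match says only that the letters are not in that window.

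To examine how the family responded to CLGN knockdown, every member was compared between the groups in a limma fit over the 13074 genes that reached 1 FPKM in 3 or more libraries. Of the 9 tested members, 6 were called lower in sh-CLGN on the deposited scale, 5 with quantile normalization or read totals and 4 after a correction for GC content. BCL2L1, the gene of BCL-XL, showed the largest change of the family, to 43.5% of control. BBC3 was at 60.1%, BID at 63.5%, MCL1 at 64.5%, PMAIP1 at 73.2% and BAX at 80.7% of control, while BCL2L2 was slightly higher. BAK1 and BAD did not pass the test, and BIK was under the filter. With an adjusted p of at most 0.05 as the rule, 6 of the 9 tested members were lower and 1 was higher. Among all tested genes the same rule called 39% lower, 26.7% higher and 65.8% in either direction, so that a call alone is common in these data. The split of all calls depended on scaling, with 3496 higher and 5102 lower on the deposited scale, 4285 and 3923 as TPM and 4956 and 3421 with read totals. When a log2 fold change of 1 or more in size was also required, BCL2L1 was the only member called, where 3.19% of all tested genes were called lower. On the deposited scale, the 3 libraries of sh-CLGN lay entirely below those of sh-NC for 6 tested members and entirely above for 2, against 41.5% of tested genes lower and 70.2% in either direction. This count was not made under the other scalings. The median log2 fold change of the 9 tested members was -0.41, beside -0.08 over all tested genes. With quantile normalization these medians were -0.26 and -0.02, and as TPM -0.31 and 0.03. They were -0.23 and 0.08 with read totals, and -0.26 and -0.02 after the GC correction. In bulk RNA, fewer cells with a transcript and less of the transcript per cell cannot be told apart.

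**Figure D1:**
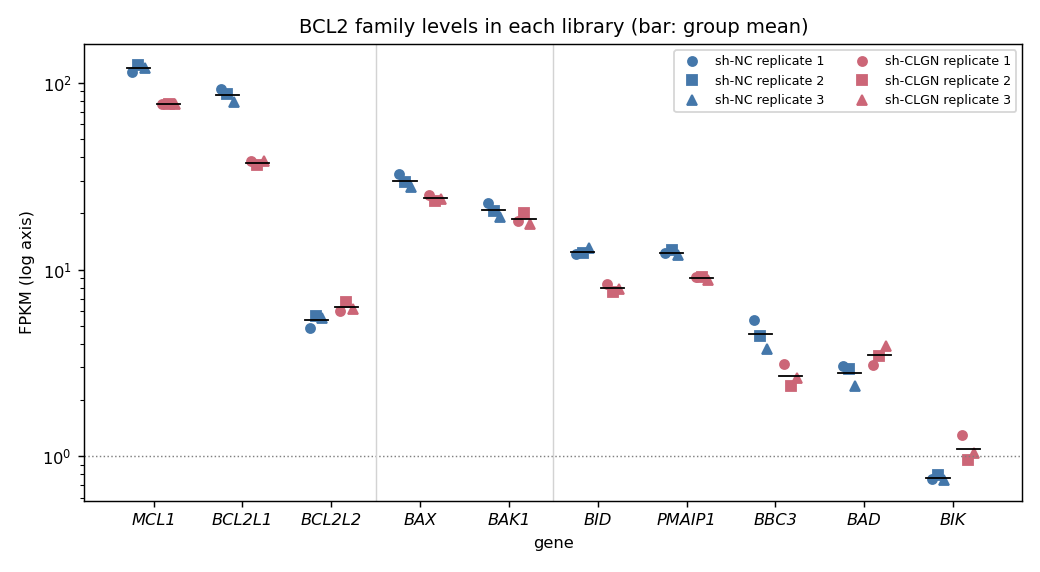
FPKM of the 10 BCL2 family members (log axis) in each sh-NC library (blue) and sh-CLGN library (red), with a black bar at the group mean, a dotted line at 1 FPKM and grey lines between pro-survival, effector and BH3-only genes. MCL1 and BCL2L1 stood above all other members in both groups, and the 3 sh-CLGN points of BCL2L1, between 36.2 and 38.2 FPKM, lay well below the sh-NC points.

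Among the pro-survival genes, BCL2L1 (ENSG00000171552, chr20:31664452-31723989, minus strand, GRCh38) had 92.4, 87.1 and 78.9 FPKM in the sh-NC libraries and 38.0, 36.2 and 38.2 FPKM in the sh-CLGN libraries. Every sh-CLGN library was below every sh-NC library, and the gap between the groups was several times the spread within either. Means were 86.1 ± 6.81 FPKM in sh-NC and 37.4 ± 1.11 FPKM in sh-CLGN (SD, n = 3 libraries each). The log2 fold change was -1.18 (SE 0.064, 95% interval -1.33 to -1.03, limma adjusted p = 5.2e-06), and 1.69% of the tested genes had a more negative value. Between 1964 and 4274 reads per library stood behind these levels. The change stayed past the adjusted p under every setting tried, but fell short of a log2 change of 1 with quantile normalization (-0.89), scaling by read totals (-0.99) and a correction for GC content (-0.98). The table gives a level for the whole gene, so the long pro-survival transcript and the short BCL-XS transcript, which promotes death, were not separated.

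MCL1 (ENSG00000143384, chr1:150574551-150579738, minus strand) encodes a short-lived protein that binds BAK1, BIM and NOXA. It had 115, 125 and 119.9 FPKM in sh-NC and 77.2, 77.4 and 77.5 FPKM in sh-CLGN, and was the most abundant member in all 6 libraries. The sh-CLGN libraries were nearly identical to each other and all were below the lowest sh-NC library. Mean levels were 120 ± 5.02 and 77.4 ± 0.141 FPKM, 64.5% of control, with a log2 fold change of -0.63 (SE 0.047, limma adjusted p = 1.91e-05). The call held in every setting, while the fold change shrank to -0.31 with quantile normalization.

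BCL2L2 (ENSG00000129473, chr14:23298790-23311759, plus strand) was the only member called higher. Its levels were 4.89, 5.62 and 5.52 FPKM in sh-NC and 6.04, 6.74 and 6.18 FPKM in sh-CLGN. The groups did not overlap, but the highest sh-NC and the lowest sh-CLGN library lay close together. The means were 5.35 ± 0.396 and 6.32 ± 0.373 FPKM and the log2 fold change was 0.21 (SE 0.070, limma adjusted p = 0.0313). The call was lost without sh-NC replicate 1 (0.15), without sh-CLGN replicate 2 (0.17), without sh-CLGN replicate 3 (0.22) and with no filter on low values (adjusted p = 0.0688). PPP1R3E, a phosphatase subunit gene that overlaps BCL2L2 on the other strand, went from 0.501 to 0.620 FPKM in sh-NC to 1.10 to 1.28 FPKM in sh-CLGN, from 43 to 115 reads. HOMEZ, which also overlaps it on that strand, had more reads (262 to 318) and did not pass the test (log2 fold change -0.08, limma adjusted p = 0.324). The library kit does not mark strand and the strand setting of the counting is not given in the sources used here, so reads in the shared stretch cannot be assigned to either gene with certainty. BCL2L2-PABPN1, a protein-coding entry on the same strand, also overlaps BCL2L2 and had 2 to 6 reads. Reads in a stretch shared with it would stay ambiguous even with strand known. The value of BCL2L2 is therefore uncertain.

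BCL2L1 has an overlapping antisense transcript as well. ABALON (chr20:31721507-31723409, plus strand) lies inside the BCL2L1 locus and covers the window of its second RefSeq start (chr20:31722819-31723118). It had 6.03, 5.11 and 6.01 FPKM in sh-NC and 2.26, 2.31 and 2.25 FPKM in sh-CLGN, which is 39.7% of control, close to the 43.5% of BCL2L1 itself. Without strand, ABALON reads may come from BCL2L1 transcripts or the other way round. With 69 to 177 reads per library against at least 1964 for BCL2L1, the antisense row is small beside the gene.

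Of the effectors among the 10 members, 1 was called lower and 1 did not pass. BOK, a relative outside the 10 that is also counted as an effector, was called higher. Its mean was 7.58 FPKM in sh-NC and 10.3 FPKM in sh-CLGN (log2 fold change 0.40, limma adjusted p = 0.0143). BAX (ENSG00000087088, chr19:48954815-48961798, plus strand) had 32.5, 29.4 and 27.7 FPKM in sh-NC and 25, 23.4 and 23.9 FPKM in sh-CLGN. Its groups did not overlap on the deposited scale, although sh-NC replicate 3 came near the highest sh-CLGN library. Means were 29.9 ± 2.42 and 24.1 ± 0.808 FPKM (log2 fold change -0.30, SE 0.065, limma adjusted p = 0.00443). This call depended on the scaling, since the log2 fold change was -0.03 with quantile normalization, -0.11 with read totals and -0.09 after the GC correction, and in none of these did BAX pass.

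BAK1 (ENSG00000030110, chr6:33572547-33580293, minus strand), the effector that sits in the outer membrane, had 22.8, 20.7 and 19.1 FPKM in sh-NC and 18.3, 20.1 and 17.6 FPKM in sh-CLGN. The groups overlapped, as sh-CLGN replicate 2 was above sh-NC replicate 3. Means were 20.9 ± 1.83 and 18.6 ± 1.30 FPKM, and the log2 fold change was -0.15 with a 95% interval from -0.33 to 0.02 (limma adjusted p = 0.108). The interval covers both a moderate fall and no change. Without sh-NC replicate 3 BAK1 passed (-0.21, adjusted p = 0.0337), and its sign turned under quantile normalization (0.08), read totals (0.03) and the GC correction (0.05).

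**Figure D2:**
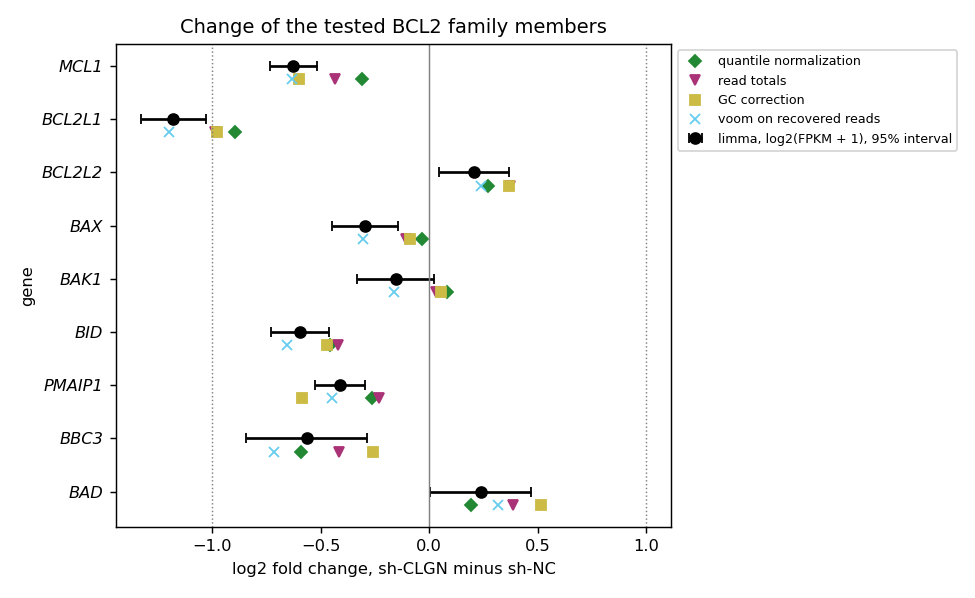
Log2 fold change of the 9 tested members (x axis, sh-CLGN minus sh-NC, dotted lines at a change of 1 in either direction), with black points and 95% intervals for the limma fit and coloured marks below for quantile normalization, read totals, the GC correction and a fit on recovered reads. BCL2L1, MCL1, BID, PMAIP1 and BBC3 lay below 0 under all of these, whereas the marks of BAX and BAK1 neared or crossed 0.

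Of the 5 BH3-only genes, 3 fell, 1 did not pass the test and 1 was under the filter. BID (ENSG00000015475, chr22:17734138-17774770, minus strand), which links death receptors and caspase-8 to the mitochondrion, had 12.1, 12.3 and 13.1 FPKM in sh-NC and 8.34, 7.60 and 7.86 FPKM in sh-CLGN. All sh-CLGN libraries were well below sh-NC. The log2 fold change was -0.60 (SE 0.057, limma adjusted p = 6.09e-05, means 12.5 ± 0.501 and 7.93 ± 0.375 FPKM), and it passed under every setting.

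PMAIP1 (ENSG00000141682, chr18:59899948-59904306, plus strand) encodes NOXA, which binds MCL-1 and promotes its breakdown. Levels were 12.2, 12.7 and 12.0 FPKM in sh-NC and 9.13, 9.09 and 8.76 FPKM in sh-CLGN, with no overlap and little spread in either group. The change was -0.41 on the log2 scale (SE 0.050, limma adjusted p = 0.000211) and passed in every setting. PMAIP1 had a low GC content (37.2%), and genes in that GC range (the lowest of 10 equal groups of genes by GC content) had a median change of 0.23, in the other direction.

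BBC3 (ENSG00000105327, chr19:47220822-47232766, minus strand), the gene of the p53-induced protein PUMA, had 5.34, 4.39 and 3.74 FPKM in sh-NC and 3.11, 2.38 and 2.61 FPKM in sh-CLGN. The groups did not overlap, but sh-NC varied more, relative to its mean, than for the other called members (4.49 ± 0.806 FPKM against 2.70 ± 0.376 FPKM). A log2 fold change of -0.56 (SE 0.120, limma adjusted p = 0.00383) resulted. After the GC correction it was -0.26 with an adjusted p of 0.0538 and no longer passed. BBC3 was the most GC-rich member (69.7%).

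BAD (ENSG00000002330, chr11:64269830-64284704, minus strand), a BH3-only protein kept inactive by phosphorylation and 14-3-3 binding, had values in the other direction. Its levels were 3.06, 2.93 and 2.38 FPKM in sh-NC and 3.07, 3.43 and 3.92 FPKM in sh-CLGN, with 63 to 108 reads. The groups did not overlap, by the narrowest of margins, and the log2 fold change of 0.24 (SE 0.1, 95% interval 0.01 to 0.47) did not pass (limma adjusted p = 0.0668). It did pass as TPM (0.41), with read totals (0.39), after the GC correction (0.52) and without sh-CLGN replicate 1 (0.30). GPR137, which overlaps BAD on the other strand, had 5.15 to 5.56 FPKM in sh-NC and 4.66 to 5.65 FPKM in sh-CLGN.

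BIK (ENSG00000100290, chr22:43110748-43129712, plus strand), a BH3-only protein of the endoplasmic reticulum, was the lowest member. It had 0.752, 0.791 and 0.746 FPKM in sh-NC and 1.30, 0.960 and 1.04 FPKM in sh-CLGN, from 10 to 21 reads, and only 2 libraries reached 1 FPKM. All sh-CLGN libraries were above sh-NC. In the fit without a filter its log2 fold change was 0.25 (SE 0.099) with a limma adjusted p of 0.128.

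The roles were then set against each other by their summed levels. The summed level of the pro-survival genes was 212, 218 and 204 FPKM in sh-NC and 121, 120 and 122 FPKM in sh-CLGN, 57.3% of control. The effectors BAX and BAK1 together had 50.7 ± 4.24 FPKM in sh-NC and 42.7 ± 1.11 FPKM in sh-CLGN, 84.2% of control. BOK, which was called higher, is not in that sum. The BH3-only genes had 32.8 ± 0.827 and 24.2 ± 0.746 FPKM, 73.7% of control. Pro-survival transcripts therefore made up 71.7% ± 1.02 of the family's summed FPKM in sh-NC and 64.4% ± 0.517 in sh-CLGN. BCL2L1 and MCL1 dominate these sums. The BH3-only sum depends on which genes enter it. BMF, a BH3-only gene outside the 10, had 25.8 to 27.0 FPKM in sh-NC and 24.5 to 25.5 FPKM in sh-CLGN and did not pass the test (log2 fold change -0.06, limma adjusted p = 0.282). With BMF, BCL2L11 and HRK added, a choice made after the values were seen, the BH3-only sum was 67.5 ± 1.48 FPKM in sh-NC and 62.3 ± 0.355 FPKM in sh-CLGN, 92.2% of control, and the pro-survival share was 64.2% ± 0.584 and 53.6% ± 0.481. Shares and ratios are taken within a library, so a single scaling factor per library, as in TPM or read totals, leaves them as they are, whereas quantile normalization and the GC correction can move them. Summed levels and their percents of control do move with such a factor. The deposited library sizes were 0.933 to 0.953 times the read totals in sh-NC and 1.07 to 1.08 times in sh-CLGN. Read totals would thus raise each percent of control, and the direction of the wider BH3-only sum depends on the scaling.

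The ratio of pro-survival to effector FPKM was 3.85, 4.35 and 4.36 in the sh-NC libraries and 2.80, 2.77 and 2.94 in sh-CLGN, without overlap. BCL2L1 to BAX, a pair whose transcripts have similar GC content (56.9% and 58.9%), had a ratio of 2.89 ± 0.0661 in control libraries and 1.55 ± 0.0391 after knockdown. BCL2L1 to BAK1, whose GC content is 58.8%, had a ratio of 4.13 ± 0.0723 in control libraries and 2.02 ± 0.194 after knockdown. The ratio of MCL1 to BCL2L1 rose from 1.40 ± 0.141 to 2.07 ± 0.063, as BCL2L1 lost more than MCL1. After the GC correction the log2 changes of MCL1 and BCL2L1 lay 0.38 apart, against 0.55 on the deposited scale, whereas the log2 change of BCL2L1 minus that of BAX was -0.89 after the correction and -0.88 without it. MCL1 to PMAIP1, a binding pair, went from 9.78 ± 0.315 to 8.61 ± 0.210. This difference was nearly gone after the GC correction, where MCL1 changed by -0.60 and PMAIP1 by -0.59, and with quantile normalization (-0.31 and -0.26). BCL2L1 made up 29.2% ± 1.42 of the family's FPKM in sh-NC and 19.9% ± 0.538 in sh-CLGN, whereas the share of MCL1 was 40.7% ± 2.21 and 41.2% ± 0.333, with overlapping libraries. BID and BBC3 also had overlapping shares between the groups. The order of levels was MCL1, BCL2L1, BAX and BAK1 in both groups. In sh-NC, BID and PMAIP1 followed with overlapping libraries, then BCL2L2 and BBC3, also overlapping, then BAD and BIK. In sh-CLGN, PMAIP1 stood above BID, and BAD and BBC3 overlapped below BCL2L2.

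**Figure D3:**
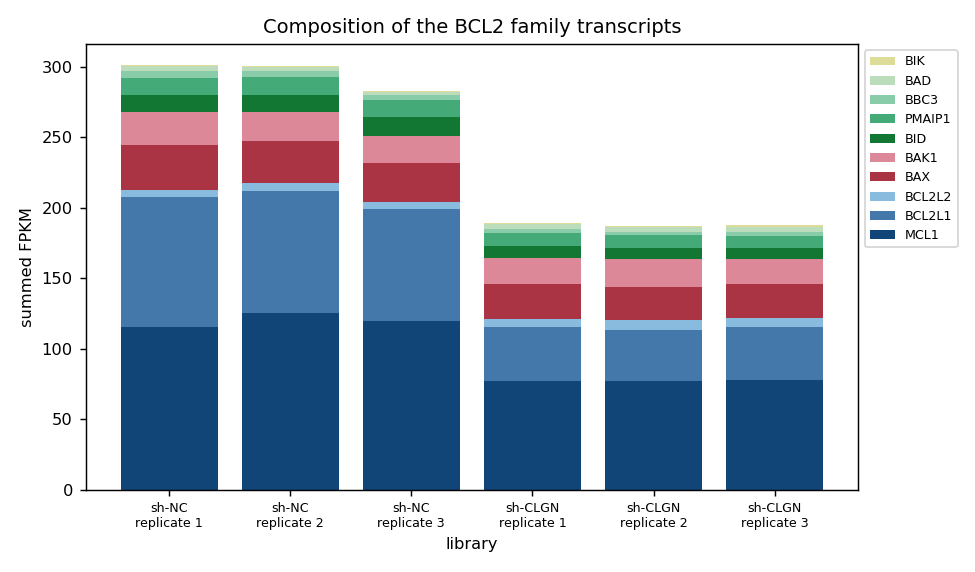
Summed FPKM (y axis) of the 10 members in each of the 6 libraries, as stacked bars from 0 with blue for pro-survival, red for effector and green to yellow for BH3-only genes. On the deposited scale the stacks reached 283 to 301 FPKM in sh-NC and 187.2 to 189.5 FPKM in sh-CLGN, and the BCL2L1 segment narrowed more than the others.

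GC content moved with the comparison across all genes, and its values are given here beside the members. The Spearman rank correlation of the log2 fold change with the GC content of the longest transcript was -0.32 across 13068 genes, which share the same 6 libraries. Median changes ran from 0.23 in the lowest of 10 equal GC groups to -0.29 in the highest. BCL2L1 (-1.18) lay in a group with a median of -0.22, MCL1 (-0.63) in one of -0.02, BID (-0.60) in one of -0.16 and BBC3 (-0.56) in one of -0.29, so each was below the median of its group. BAX (-0.30) and BAK1 (-0.15) shared a group with a median of -0.25 and lay near it. BAD and BCL2L2 were above the medians of their groups, -0.29 and -0.21. Among the sh-NC libraries, replicate 3 was the lowest for 7 of the 10 members, a count not made over all genes. These were BCL2L1, BAX, BAK1, BAD, BIK, BBC3 and also PMAIP1, the member with the lowest GC content (37.2%). The deviation of replicate 3 from the other sh-NC libraries had a rank correlation of -0.64 with GC content. The part of GC content in the members' changes was not tested beyond the correction given above.

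**Figure D4:**
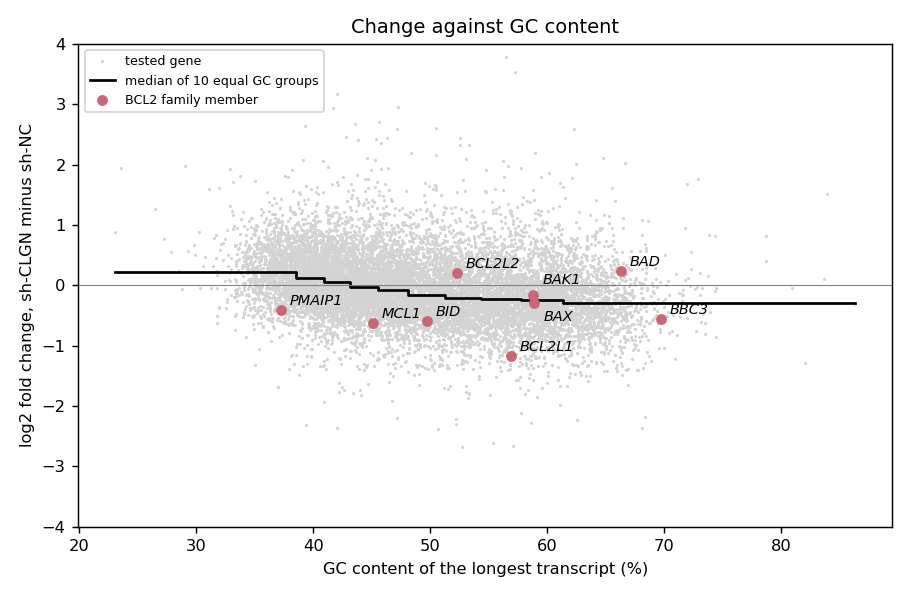
Log2 fold change (y axis, sh-CLGN minus sh-NC) against the GC content of the longest transcript (x axis, percent) for each tested gene (grey), with the 9 tested members in red and the median of each of 10 equal GC groups as a black line. BCL2L1, MCL1, BID, PMAIP1 and BBC3 lie below the line, BAX and BAK1 close to it, and BAD and BCL2L2 above it.

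The remaining relatives of the family showed no common direction. Of 14 genes 8 could be tested, 2 were higher, 4 lower and 2 did not pass, with a median log2 fold change of -0.15. With quantile normalization or read totals the split was 4 higher and 2 lower and the median turned to 0.09 or 0.03. Over all tested genes on the deposited scale, 26.7% were called higher and 39% lower, with a median of -0.08. BCL2L11, the gene of the BH3-only protein BIM, had 7.41, 8.98 and 8.63 FPKM in sh-NC and 12.6, 13.6 and 12.3 FPKM in sh-CLGN (log2 fold change 0.57, SE 0.076, limma adjusted p = 0.000349), and thus rose where BID, BBC3 and PMAIP1 fell. BNIP3, a mitophagy receptor with a BH3-like region, fell from 29.7 ± 0.736 to 19.1 ± 0.268 FPKM (-0.61, adjusted p = 1.83e-05). BECN1, the autophagy protein that BCL-2 binds (-0.32), and BCL2L13 (-0.25) were called lower too, although BCL2L13 did not pass with quantile normalization (-0.02), TPM (-0.13) or read totals (-0.06), and BECN1 did not with read totals (-0.15). BCL2 itself, the founding member, had 0 to 3 reads in every library, at most 0.0150 FPKM, at or under the floor of 3 reads, so BCL2 was not detectable at this depth. BCL2A1 had at most 8 reads, BCL2L10 at most 2, BCL2L15 at most 4, HRK 6 to 12 and BCL2L14 33 to 81 reads, and all 6 were under the filter.

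Downstream, at the outer membrane and the apoptosome, 13 of 14 genes could be tested, and 9 were lower, 3 higher and 1 did not pass (median -0.29). The split was 4 higher and 5 lower with read totals, 4 and 6 with quantile normalization or as TPM. Among all tested genes 39% were called lower and 26.7% higher on the deposited scale (median -0.08). The voltage-dependent channels VDAC1 (-0.57, limma adjusted p = 2.98e-05) and VDAC3 (-0.60, adjusted p = 4.56e-05) of the outer membrane were lower, as was AIFM1, a flavoprotein released from mitochondria (-0.54, adjusted p = 4.35e-05). ENDOG, a mitochondrial nuclease, had 21.2, 26.1 and 18.4 FPKM in sh-NC and 7.29, 6.77 and 8.93 FPKM in sh-CLGN (-1.40, adjusted p = 5.95e-05). HTRA2, a protease that binds XIAP, rose from 6.03 ± 0.119 to 9.46 ± 0.392 FPKM (0.57, adjusted p = 5.70e-05). DIABLO was under the filter with 11 to 41 reads, and its value is uncertain because a second entry of that name covers the same locus.

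Of 12 transcription factors and co-regulators known to act on the family, 11 could be tested, 9 were lower, 0 were higher and 2 did not pass, with a median of -0.47. Under the other scalings 7 to 9 were lower and 0 higher, and STAT3, called lower here, turned above 0 with quantile normalization without passing. For comparison, 39% of all tested genes were called lower and 26.7% higher on the deposited scale, with a median of -0.08. TRIB3, a pseudokinase of the ATF4 and CHOP stress response, had 124, 131 and 108 FPKM in sh-NC and 39.5, 39.8 and 41.3 FPKM in sh-CLGN (-1.56, SE 0.072, limma adjusted p = 2.74e-06). NFKB1, whose product is a subunit of NF-κB and which can raise BCL2L1, fell from 18.4 ± 0.766 to 9.75 ± 0.197 FPKM (-0.85, adjusted p = 7.52e-06). ATF4, a driver of PMAIP1 and BBC3 under stress, fell from 250 ± 11.5 to 168 ± 3.39 FPKM (-0.57, adjusted p = 3.98e-05), MYC by 0.70 and E2F1 by 0.84 on the log2 scale. TP73 had 10 to 17 reads and was under the filter. Neither FOXO1 nor FOXO3 passed.

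Genes whose products act on the family's proteins were mixed. All 16 were tested, and 5 were higher, 9 lower and 2 did not pass (median -0.19). With quantile normalization 5 were higher and 4 lower, and as TPM or with read totals 6 were higher and 5 lower. The shares of all tested genes on the deposited scale were 26.7% higher and 39% lower (median -0.08). YWHAG, a 14-3-3 protein of the kind that holds phosphorylated BAD, had 115, 111 and 120.5 FPKM in sh-NC and 45.9, 48.0 and 45.5 FPKM in sh-CLGN (-1.30, SE 0.049, limma adjusted p = 1.49e-06), and SFN, another 14-3-3 protein, fell from 10.9 ± 1.36 to 5.59 ± 0.398 FPKM (-0.84). The kinases PIM2 (0.66, adjusted p = 9.76e-05) and PIM3 (-0.78, adjusted p = 0.000248), which phosphorylate BAD, moved in opposite directions. HUWE1, a ubiquitin ligase for MCL-1, fell from 45.2 ± 3.39 to 30.9 ± 2.36 FPKM (-0.53, adjusted p = 0.000429).

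**Figure D5:**
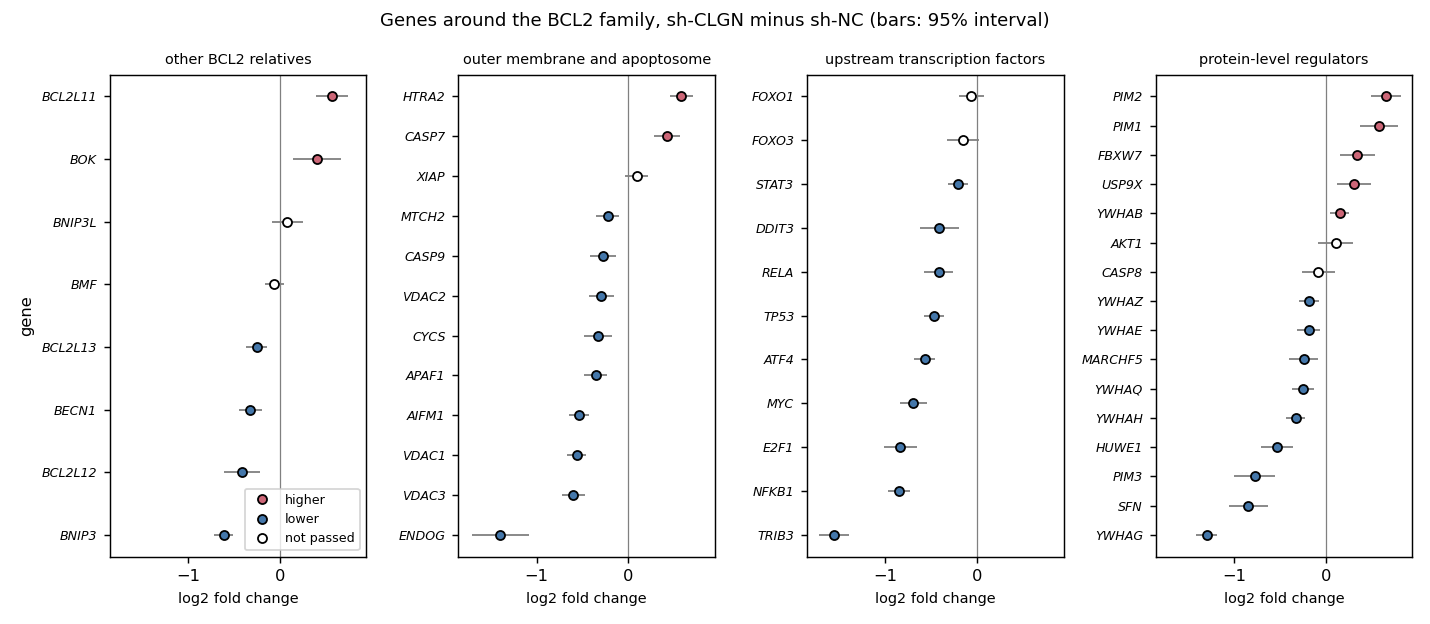
Log2 fold change (x axis, sh-CLGN minus sh-NC) with 95% intervals for tested genes of the 4 lists around the family, red where higher, blue where lower and white where the test was not passed. The 9 called transcription factors and co-regulators lie below 0, as far as the pseudokinase TRIB3 at -1.56, though STAT3 turned under quantile normalization. The other lists spread to both sides, with PIM2 at 0.66 and ENDOG at -1.40.

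Matches to the seed of the sh-CLGN hairpin were searched in the members. Guide positions were counted from the 5′ end of the strand complementary to the stated target. On that basis, 3 heptamers that pair with guide positions 1 to 7, 2 to 8 and 3 to 9 were searched in the longest annotated 3′ untranslated region of each member. Sites were found in BCL2L2 and BID only, shown with the heptamer in capitals and positions counted from the first base of that region.
BCL2L2, positions 2037 to 2043: ctaccctcTACCACAggacacat
BID, positions 1326 to 1332: tgcaatacATACCACgctagggc
BID, positions 1180 to 1186: ctcctgtgACCACAAcatgaggc

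Of 10880 tested genes with such a region, 7.33% held the heptamer for positions 3 to 9, 9.75% that for positions 2 to 8, 10.5% that for positions 1 to 7, and 19.7% any of the 3. BID fell and BCL2L2 was higher, and the other 8 members, BCL2L1 and MCL1 among them, held 0 of these heptamers. The part of these sites in the change of BID was not tested.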

How the data were processed

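RNA from 3 sh-NC and 3 sh-CLGN libraries of Hep-G2 was sequenced. The authors deposited 1 table of gene FPKM for all libraries, beside each gene's length and position. The submitters' processing notes name HISAT2 2.0.5, featureCounts and GRCh38. Their library sizes were 0.933 to 0.953 times the sh-NC read totals and 1.07 to 1.08 times those of sh-CLGN. All 58735 gene positions equalled GENCODE 29. FPKM gave back whole reads for 100% of values, within 0.01 of a read. Reads carried no molecular identifiers, so the floor of 3 reads covers counting error only.

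Groups were compared with limma 3.58.1 in R 4.3.3 (eBayes with an intensity trend) on log2(FPKM + 1), without covariates, over 13074 genes that reached 1 FPKM in 3 or more libraries, two-sided, with Benjamini-Hochberg adjustment over these genes. This scale understates changes of low genes. The fits were tested on simulated data. Alternatives were a pseudocount of 0.1, no filter, quantile normalization, TPM, read totals, a lowess correction for GC content, a replicate block, leaving out each library and, added after seeing the data, voom on the recovered reads. The 2 planned count models were not run, because the table holds FPKM.

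The members and lists were chosen with earlier results of these data known. Named were all members, CLGN, overlapping genes and, of each list, genes past both thresholds, the 4 others with the smallest adjusted p and those under the filter. A few others, such as BMF and BOK, were named after the values were seen. Of the genes that meet this rule, 1 is not reported here or drawn in the plot of the lists.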

Additional observations from a re-analysis of the deposited data

How the results depend on the processing

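BCL2L1, MCL1, BID and PMAIP1 kept their direction and their call under all 14 alternatives. The count of members called higher, 1 here, was 0 with no filter and 2 as TPM, with read totals and after the GC correction, where BAD passed, and 0 to 2 when a library was left out. The count called lower was 4 after the GC correction, 5 with quantile normalization and read totals, and 6 to 7 with a library left out, and it was 6 in the others. Past both thresholds, 0 members remained with quantile normalization, read totals and the GC correction. BAK1 turned to 0.082 with quantile normalization, 0.031 with read totals and 0.053 after the GC correction, without passing. Relative to the fit given, the median of all genes moved up by 0.11 as TPM and 0.16 with read totals, and by 0.11 with no filter, where more genes were tested. Why the other calls changed was not tested.

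Over all genes, 417 were lower past both thresholds, against 681 with a pseudocount of 0.1, 235 with read totals, 258 after the GC correction and 733 with voom, and 404 were higher, against 925, 1002 as TPM and 989 with voom. Among the other relatives, 4 were higher and 2 lower with quantile normalization and with read totals. Read totals left 5 lower genes at the outer membrane and apoptosome. Of the protein-level regulators, 4 were lower with quantile normalization and 5 as TPM and with read totals. No shared deviation was seen between same-numbered libraries, whose deviations correlated at -0.02, -0.05 and -0.15. These values cannot show whether the libraries were made in pairs. With a replicate block, 6 members were lower and 1 higher, and 3281 genes were higher and 4757 lower over all genes. The planned count models on recovered reads were not run. BIK and the genes under the filter are limited by depth.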
